A study of Mus musculus with 6 samples.

Results

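The genes described here encode the subunits of the receptors for glutamate, GABA and glycine in the mouse. They were chosen by symbol: protein-coding genes of the GENCODE M21 annotation whose symbol begins with Gria, Grid, Grik, Grin, Grm, Gabr or Glr in the pattern of a receptor subunit. The pattern took 50 genes, among 33676 genes with at least 1 transcript listed in the deposited table of counts. The study sequenced RNA of the modiolus, the central bone of the cochlea in which the spiral ganglion neurons (SGNs) lie, in 6 libraries. The 3 control libraries came from C57BL/6 mice given saline, and the 3 degenerated libraries from C57BL/6 mice given 1 g/kg kanamycin sulfate and 0.4 g/kg furosemide, a treatment that kills hair cells. The study's methods give 8-week-old males, and its results name day 30 after injection as the time point for the transcriptome of degeneration. The labels name SGNs as the cell type, but the RNA came from the whole modiolus, and neither source says that each library came from an animal of its own, so the p-values below measure the spread between libraries only, which may be technical.

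Glutamate is the transmitter that inner hair cells release onto the peripheral endings of SGNs, where ionotropic receptors of the AMPA class carry the fast response. Kainate and NMDA receptors are further cation channels opened by glutamate, the delta receptors are relatives that bind glycine and D-serine, and the metabotropic receptors signal through G proteins. GABA-A and glycine receptors are chloride channels, each built of 5 subunits around a pore, and in the cochlea GABA is best known from the efferent fibres that run back from the brainstem.

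The libraries held 12480876 to 15549319 counts, and genes were tested for a difference between the groups with edgeR's quasi-likelihood test. Levels are given as CPM, the counts scaled to the size and composition of the library, and levels of different genes are compared only in TPM, which is also scaled to transcript length. The 17 tested marker genes of SGNs summed to 9837 to 13507 CPM in control and 6304 to 9130 CPM in degenerated libraries, and those of outer hair cells to 268 to 294 and 83.0 to 124 CPM. In neither list did the groups overlap. Of the SGN markers, 12 had a log2 fold change below 0 and 5 above 0, and 1, the growth-cone gene Gap43, was called higher by the rule used for receptor genes. Of the 13 marker lists, 6 had sums that did not overlap between the groups. Macrophage markers summed to 511 to 586 CPM in controls and 601 to 775 CPM in degenerated libraries, and those of supporting cells and epithelium to 1069 to 1208 and 1307 to 1523 CPM. Markers of skeletal muscle summed lower in degenerated libraries, at 732 to 1310 and 330.0 to 522 CPM, as did those of bone and cartilage, at 921 to 1308 and 531 to 781 CPM. Their part in the receptor results was not tested. In bulk tissue, fewer cells of a type and less RNA per cell cannot be told apart. Markers of erythroid and marrow cells varied from 6456 to 48322 CPM among controls and from 4479 to 18969 CPM among degenerated libraries. Markers of central neurons and cerebellum were low, at 20.98 to 29.4 CPM in controls and 14.4 to 72.8 CPM in degenerated libraries.

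Of the 50 receptor genes, 7 had no listed transcript and were not analysed here: Gabrg1, Gabrg3, Gabrr1, Grin2d, Grid1, Glra4 and Grik4. Another 8 had a listed transcript with 0 counts in every library: the GABA-A subunit genes Gabra3 and Gabra5, the rho subunit genes Gabrr2 and Gabrr3, the NMDA subunit genes Grin2a and Grin2b, and the metabotropic receptor genes Grm5 and Grm6. A count of 0 allows up to 3 counts, or 0.191 to 0.237 CPM depending on the library, and concerns the listed transcripts only. A further 9 genes had counts but were too low for the test, namely Gabra6, Gabre, Gabrq, Glra1, Glra2, Glra3, Grik2, Grm2 and Grm4. The remaining 26 genes were tested, and for 7 of them every annotated transcript was listed. Values of the others describe the listed part of the gene.

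By TPM, the gene of the glycine receptor beta subunit, Glrb, stood far above the rest, with 57.5% to 68.8% of all receptor TPM in each library. Its mean over the 6 libraries was 329.7 TPM. The next were the AMPA subunit gene Gria4 at 44.5 TPM, the kainate subunit gene Grik5 at 39.1 TPM, the metabotropic receptor gene Grm7 at 21.4 TPM and the NMDA subunit gene Grin1 at 15.4 TPM. Gria4 and Grik5 did not differ beyond their spread, at 48.5 ± 10.8 and 34.1 ± 13.1 TPM in control libraries (SD, n = 3 each). Every other receptor gene had a mean of at most 7.11 TPM.

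**Figure D1:**
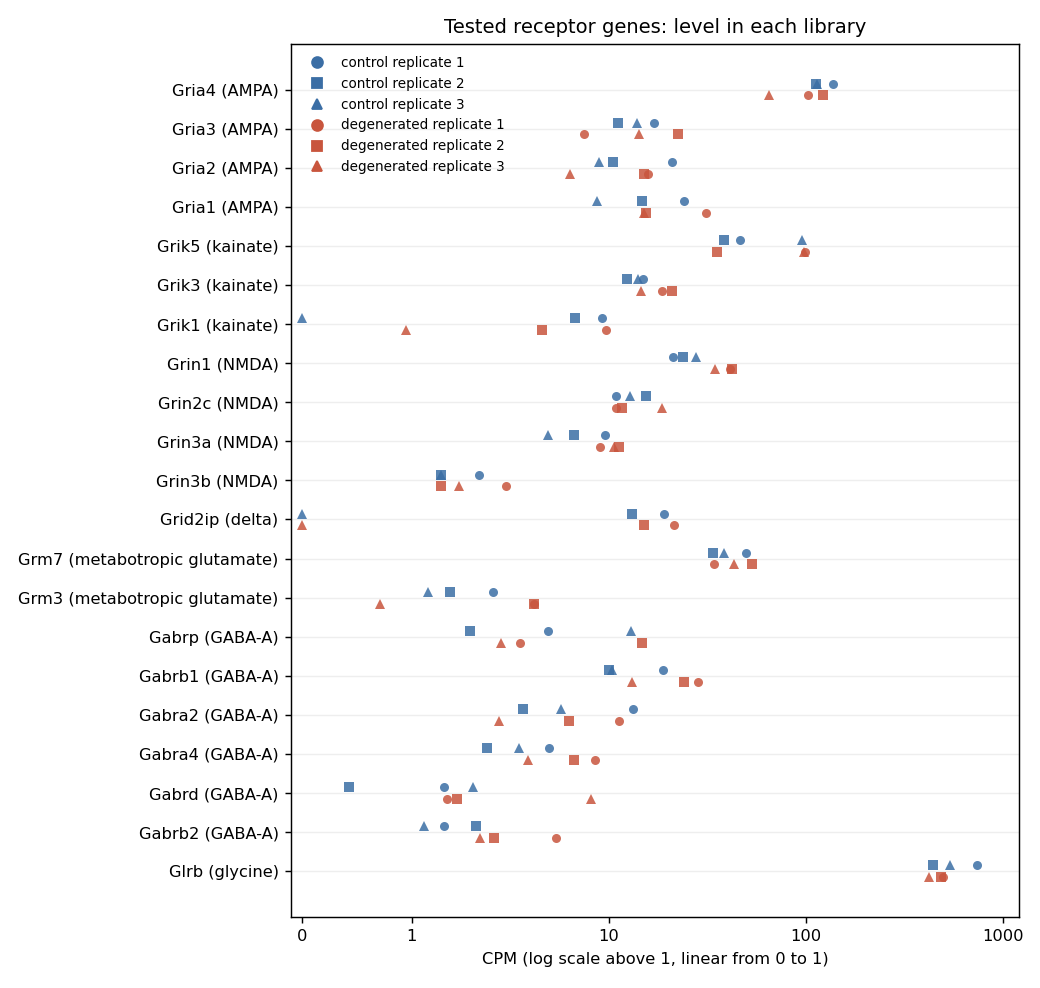
Level of 21 of the 26 tested receptor genes in the 6 libraries, in CPM (log scale above 1, linear from 0 to 1), with control libraries in blue, degenerated libraries in red and replicate numbers by symbol. In most rows the blue and red symbols interleave, while in Grin1 the degenerated libraries (34.6 to 42.3 CPM) all lie above the controls (21.2 to 27.6 CPM).

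Between the groups, 21 of the 26 tested genes had a higher and 5 a lower fitted level in degenerated libraries, with a median of 0.37 on the log2 scale. Over all 14118 genes tested, 49.7% were higher, against 80.8% of the receptor genes, and the median log2 fold change was -0.0034. A log2 fold change above 0.5 was seen in 10 of the 26 receptor genes and in 16.9% of all genes tested. A single library moved these values: without degenerated replicate 1, the median was 0.22, with 16 of 26 genes higher. The genes share the same 6 libraries, so their number does not measure the spread between libraries. By library, the median deviation of the receptor genes in log2 CPM was 0.18, -0.28 and -0.25 in control replicates 1, 2 and 3. In degenerated replicates 1, 2 and 3 it was 0.59, 0.24 and -0.13, so the groups overlapped.

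A gene was called where its unadjusted p was under 0.01 and its log2 fold change over 0.2 in size. By this rule, 1 receptor gene was called higher, Grin1, and 0 were called lower. The rule called 2.73% of all genes tested, 2.01% higher and 0.715% lower. At a Benjamini-Hochberg adjusted p under 0.05, edgeR's quasi-likelihood test called 0 receptor genes and 0.0% of all genes, with 1 receptor gene and 1367 of all genes at an unadjusted p under 0.05. At that adjusted p, DESeq2 called 2.71% of all genes tested, Grin1 among them at 0.0269, edgeR's exact test called 0.815% of all genes and 0 receptor genes, and limma-voom called 0 of both. By the unadjusted rule, limma-voom (p 0.00853) and DESeq2 also called Grin1, and the exact test (p 0.0407) did not. All 3 libraries of a group lay above all 3 of the other in 2 of the 26 tested receptor genes (7.69%), Grin1 and the GABA-A subunit gene Gabrb2, against 17.7% of all genes tested.

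**Figure D2:**
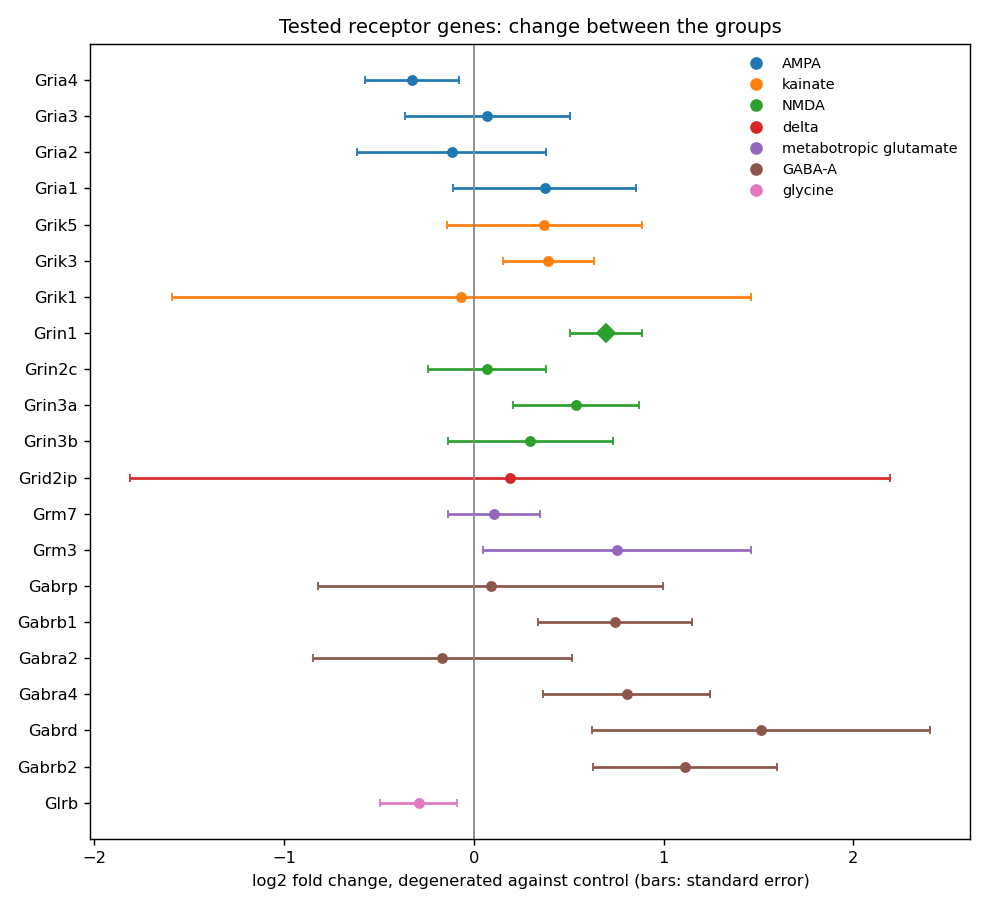
Log2 fold change of the same 21 receptor genes, degenerated against control, with bars for the standard error and colours for the receptor family. The diamond marks Grin1 (0.70), the called gene, and most GABA-A subunits lie to the right of 0 with long bars, while Gabra2 lies at -0.17.

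The 4 AMPA receptor genes were all tested, with 2 higher and 2 lower, a median log2 fold change of -0.02 and 0 calls. Their levels summed to 199, 148 and 145 CPM in control replicates 1, 2 and 3 and to 157, 174 and 101 CPM in degenerated replicates 1, 2 and 3. The groups overlapped. Gria4 (ENSMUSG00000025892, chromosome 9 of GRCm38 from 4417896 to 4796234, minus strand, 3 of 4 transcripts listed) encodes GluA4, a subunit of rapidly gating AMPA receptors, and held most of the family's counts. It stood at 137, 112 and 113 CPM in controls and at 103, 122 and 65.0 CPM in degenerated libraries. The highest degenerated library lay above 2 of the 3 controls. Its log2 fold change was -0.33 (standard error, SE, 0.25, edgeR adjusted p 0.719).

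Gria3 (ENSMUSG00000001986, chromosome X from 41400854 to 41678601, 4 of 9 transcripts listed), which encodes GluA3, had 16.9, 11.2 and 13.9 CPM in controls and 7.46, 22.3 and 14.3 CPM in degenerated libraries. Both the lowest and the highest value were in the degenerated group. The log2 fold change was 0.07 (SE 0.43, edgeR adjusted p 0.967), and it turned negative under several other settings. Gria1, which encodes GluA1, ranged from 8.74 to 24.2 CPM in controls and from 15.0 to 31.2 CPM in degenerated libraries. Gria2, whose product GluA2 makes the channel impermeable to calcium, ranged from 8.93 to 20.98 and from 6.31 to 15.9 CPM. Of the listed Gria2 counts, 13.2% lay in protein-coding transcripts and the rest in transcripts with retained introns or marked for decay.

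AMPA subunits come in a flip and a flop form, made by the choice between 2 neighbouring exons that encode part of the ligand-binding domain and set how rapidly the channel desensitizes. The listed transcripts part these forms for Gria4 and Gria3. The exons are printed because the share of flip counts in Gria4 differed between the groups without overlap, and capitals mark the bases that differ between the flip and flop exons of the same gene. All are 115 bases long and are read from GRCm38 by the exons of GENCODE M21, at chr9:4427030-4427144 (minus strand) for Gria4 flip, chr9:4432773-4432887 (minus strand) for Gria4 flop, chrX:41669501-41669615 (plus strand) for Gria3 flip and chrX:41654810-41654924 (plus strand) for Gria3 flop.
Gria4 flip: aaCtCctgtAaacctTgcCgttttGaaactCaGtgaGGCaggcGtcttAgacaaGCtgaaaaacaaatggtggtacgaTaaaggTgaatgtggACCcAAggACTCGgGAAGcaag
Gria4 flop: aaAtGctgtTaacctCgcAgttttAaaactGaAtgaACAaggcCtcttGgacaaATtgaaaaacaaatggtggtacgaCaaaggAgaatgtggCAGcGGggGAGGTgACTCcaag
Gria3 flip: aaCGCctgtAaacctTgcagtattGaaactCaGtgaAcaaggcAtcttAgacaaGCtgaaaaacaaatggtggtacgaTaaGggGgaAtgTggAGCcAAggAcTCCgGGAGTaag
Gria3 flop: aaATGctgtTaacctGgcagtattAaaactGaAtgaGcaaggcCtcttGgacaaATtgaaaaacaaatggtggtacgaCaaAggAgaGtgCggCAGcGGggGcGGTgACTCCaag
The 2 exons of Gria4 differed at 31 bases and those of Gria3 at 32. The same form was closer between the genes, with 13 bases different between the flip exons and 6 between the flop exons.

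In Gria4, the flip transcript (Gria4-202) held 34.4%, 52.3% and 42.5% of the counts of both forms in control replicates 1, 2 and 3 and 73.0%, 60.9% and 63.8% in degenerated replicates 1, 2 and 3. Every degenerated library lay above every control. The means were 43.0 ± 8.97% and 65.9 ± 6.32% (SD, n = 3 each), a difference of 22.8 percentage points that stayed between 18.5 and 27.5 whichever library was left out. The exact two-sided permutation p was 0.1, the smallest that 3 against 3 libraries can give, and 0.4 after Benjamini-Hochberg adjustment over the 4 genes whose forms were compared, so the difference could not pass 0.05. These genes and forms were chosen after the values were seen.

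The counts behind these shares were 729 to 1758 per library. The flop transcript (Gria4-204) had 1154, 680 and 918 counts in controls and 370, 609 and 264 counts in degenerated libraries, with no overlap, and the flip transcript had 604, 745 and 678 against 1000, 948 and 465. In a fit over 26065 transcripts, in which the same rule called 1.79% and 4 transcripts (0.0153%) had an adjusted p under 0.05, the flop transcript had a log2 fold change of -1.09 (SE 0.34, edgeR unadjusted p 0.0204, adjusted p 0.605) and the flip transcript one of 0.29 (SE 0.29, unadjusted p 0.349). The rule called 0 transcripts of receptor genes. The coding parts of both transcripts differ in this exon alone, but their total lengths of 5352 and 5207 bases also differ, and a further flop transcript was not listed. In Gria3, the flip share was 32.2%, 53.0% and 43.0% in controls and 47.9%, 57.1% and 62.8% in degenerated libraries. Here the groups overlapped (exact permutation p 0.2, adjusted 0.4).

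**Figure D3:**
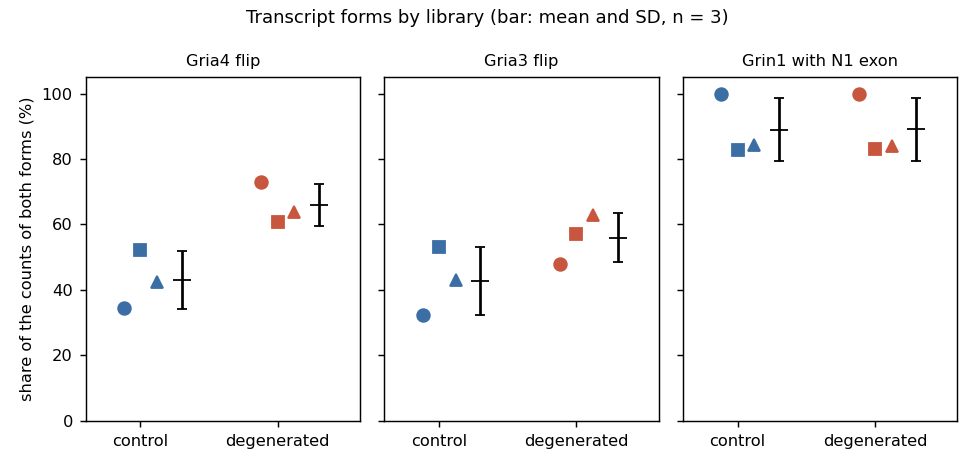
Share of 1 transcript form in the counts of both forms of its gene, in percent, for Gria4 and Gria3 (flip) and Grin1 (with the N1 exon), with 1 symbol per library and the mean and SD (n = 3) beside them. The Gria4 flip share lies between 34.4% and 52.3% in control and between 60.9% and 73.0% in degenerated libraries, while the groups overlap in the other 2 panels.

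Of the 5 kainate receptor genes, 3 were tested, with 2 higher, 1 lower and 0 calls. Grik5 (ENSMUSG00000003378, chromosome 7 from 25009849 to 25072346, 4 of 7 transcripts listed) encodes GluK5, a subunit that forms channels only together with GluK1, GluK2 or GluK3. It stood at 46.2, 38.2 and 94.9 CPM in controls and at 99.2, 35.5 and 97.6 CPM in degenerated libraries. Control replicate 3 was close to degenerated replicates 1 and 3, and the log2 fold change of 0.37 (SE 0.51, edgeR adjusted p 0.850) moved between 0.13 without control replicate 2 and 0.87 without control replicate 3.

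Grik3 (ENSMUSG00000001985, chromosome 4 from 125490700 to 125714173, its 1 transcript listed) encodes GluK3. It had 14.8, 12.3 and 14.0 CPM in controls and 18.6, 20.8 and 14.5 CPM in degenerated libraries. The lowest degenerated library lay just under the highest control, and the log2 fold change was 0.39 (SE 0.24, edgeR adjusted p 0.652). Grik1, which encodes GluK1, had 0 to 9.20 CPM in controls and 0.947 to 9.64 CPM in degenerated libraries, lowest in replicate 3 of each group. Grik2, the gene of GluK2, had 49 counts over all 6 libraries.

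In the NMDA family, the 4 tested genes of 7 all had a higher fitted level in degenerated libraries, with a median log2 fold change of 0.42 and 1 call. Their summed level was 44.0, 47.4 and 46.7 CPM in controls and 63.8, 66.6 and 65.5 CPM in degenerated libraries. The groups did not overlap, with means of 46.0 ± 1.82 and 65.3 ± 1.41 CPM (SD, n = 3 each), a log2 ratio of 0.51. Grin1 alone took 48.3% to 64.3% of this sum. Grin1 (ENSMUSG00000026959, chromosome 2 from 25291181 to 25319187, minus strand, 3 of 14 transcripts listed) encodes GluN1, the subunit that every NMDA receptor contains.

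Grin1 stood at 21.2, 23.8 and 27.6 CPM in controls and at 41.0, 42.3 and 34.6 CPM in degenerated libraries. All 3 degenerated libraries lay above all 3 controls, with means of 24.2 ± 3.21 and 39.3 ± 4.16 CPM (SD, n = 3 each), a ratio of 1.62. The log2 fold change was 0.70 (SE 0.19, edgeR unadjusted p 0.00986, adjusted p 0.365). The call lay close to the threshold: the unadjusted p rose above 0.01 without any 1 of the libraries (0.0118 to 0.0411, log2 fold change 0.60 to 0.79) and in edgeR's exact test (0.0407). An antisense gene, Grin1os, overlaps Grin1 on the other strand, and the sources used here do not say whether the counting used strand. Grin1os had 2.76 to 5.30 CPM, lower than Grin1 in every library.

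Most Grin1 counts were in a transcript with the N1 cassette, an exon in the amino-terminal domain that makes the receptor less sensitive to protons. The exon spans chr2:25311343-25311405 (minus strand, GRCm38), and its 63 bases or 21 codons are printed since they part the 2 listed coding transcripts.
Grin1 N1 exon: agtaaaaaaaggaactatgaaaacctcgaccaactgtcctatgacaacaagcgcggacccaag
The share with the exon was 100%, 82.8% and 84.2% in controls and 100%, 83.1% and 84.0% in degenerated libraries. The mean difference was 0.020 percentage points (from -5.47 to 5.52 with each library left out, exact permutation p 1.0), while the counts of both transcripts together were 317 to 431 in controls and 437 to 598 in degenerated libraries. The transcript with the exon had a log2 fold change of 0.67 (SE 0.23, edgeR unadjusted p 0.0278).

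Grin2c (ENSMUSG00000020734, chromosome 11 from 115249169 to 115267243, both transcripts listed) encodes GluN2C, a glutamate-binding subunit. It had 10.9, 15.5 and 12.8 CPM in controls and 10.8, 11.7 and 18.6 CPM in degenerated libraries, with overlapping groups and a log2 fold change of 0.07 (SE 0.31, edgeR adjusted p 0.955). Grin3a and Grin3b encode the glycine-binding subunits GluN3A and GluN3B. Grin3a ranged from 4.91 to 9.60 CPM in controls and from 8.96 to 11.2 CPM in degenerated libraries (log2 fold change 0.54, edgeR adjusted p 0.656), and Grin3b from 1.40 to 2.18 and from 1.41 to 3.01 CPM. Grin3b overlaps Tmem259, a gene on the other strand with 188 to 241 CPM, and whether the counting used strand is not known. Of the glutamate-binding subunits, Grin2c was the one with counts, since Grin2a and Grin2b were at 0 in their listed transcripts and Grin2d had none listed.

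The pattern for delta receptors took 3 genes, of which Grid2ip is not a receptor but the gene of delphilin, a scaffold protein that binds a delta receptor. Grid2ip (ENSMUSG00000010825, chromosome 5 from 143357338 to 143392152, 1 of 5 transcripts listed) had 18.9, 13.1 and 0 CPM in controls and 21.5, 15.1 and 0 CPM in degenerated libraries. Replicate 3 was at 0 in both groups, and the log2 fold change of 0.19 had a SE of 2.0.

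Of the 7 genes of metabotropic glutamate receptors, 3 were tested, all with a higher fitted level and 0 called. The median log2 fold change was 0.75. Grm7 (ENSMUSG00000056755, chromosome 6 from 110645581 to 111567230, 3 of 5 transcripts listed), whose product is a presynaptic receptor coupled to inhibitory G proteins, held most of the family's counts. It had 49.7, 33.5 and 38.3 CPM in controls and 33.9, 53.5 and 43.3 CPM in degenerated libraries. The groups overlapped almost fully, and the log2 fold change was 0.11 (SE 0.24, edgeR adjusted p 0.912).

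Grm3 (ENSMUSG00000003974, chromosome 5 from 9485541 to 9725170, its 1 transcript listed) encodes a receptor of neurons and glia. It had 2.58, 1.56 and 1.21 CPM in controls and 4.17, 4.16 and 0.710 CPM in degenerated libraries. Degenerated replicates 1 and 2 were high and replicate 3 was the lowest of all, and the log2 fold change was 0.76 (SE 0.71, edgeR adjusted p 0.779). It was 0.43 without degenerated replicate 1 and 1.22 without degenerated replicate 3. Grm2 had 39 counts over all libraries, and Grm4 had 21 counts, all in control replicate 3.

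By a small margin over metabotropic glutamate receptors, the GABA-A receptor had the largest median shift of families with over 1 tested gene. Of its 16 genes, 9 were tested, of which 8 had a higher and 1 a lower fitted level in degenerated libraries, the median was 0.81 on the log2 scale, and 0 were called. The summed level was 55.5, 32.8 and 44.0 CPM in controls and 89.5, 68.5 and 50.3 CPM in degenerated libraries. By CPM the groups overlapped, since degenerated replicate 3 lay below control replicate 1. By TPM they did not, with 23.0, 12.6 and 17.9 TPM against 38.0, 33.0 and 30.9 TPM. Of the 30.9 TPM in degenerated replicate 3, Gabrd held 7.72 and Gabra6 2.79 TPM. Without Gabrd and Gabra6, that library lay below control replicate 1 by TPM too. The median was 0.53 without degenerated replicate 1, with 7 of 9 genes higher.

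**Figure D4:**
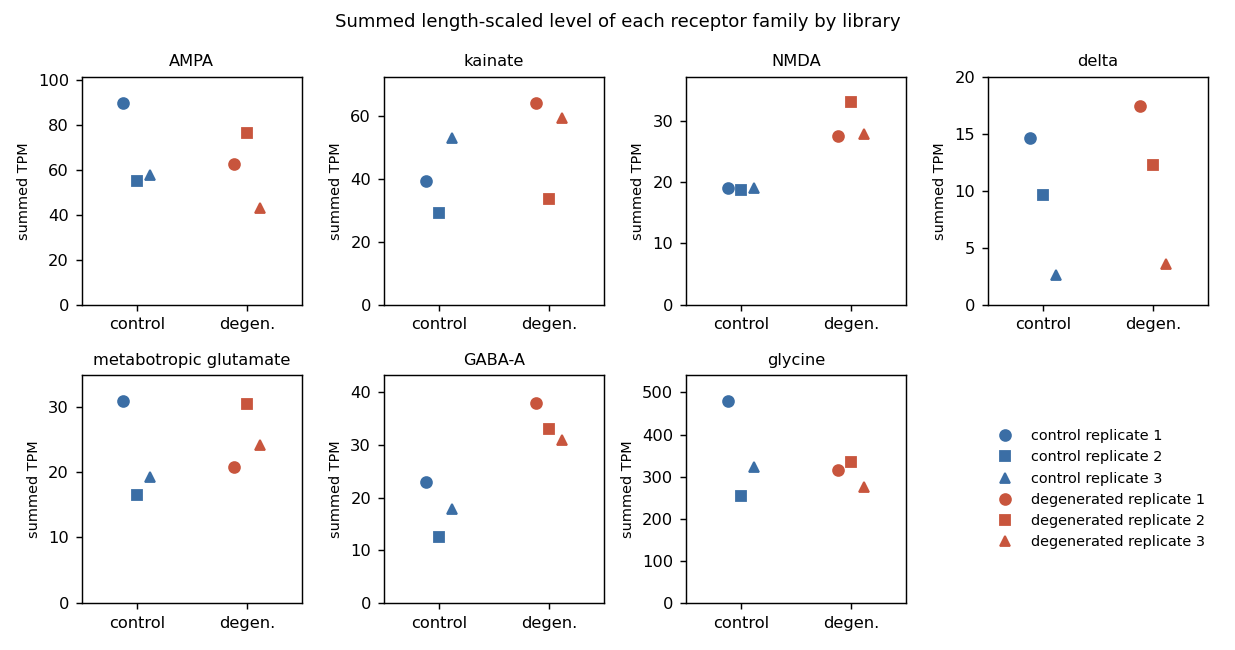
Summed TPM of each receptor family in the 6 libraries, with control libraries in blue and degenerated libraries in red and each vertical axis starting at 0. The groups do not overlap for NMDA and GABA-A receptors and overlap for the other 5 families. The GABA-A gap is lost without Gabrd and Gabra6.

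Alpha subunits form the GABA-binding site together with beta subunits. Gabra2 ranged from 3.68 to 13.3 CPM in controls and from 2.76 to 11.2 CPM in degenerated libraries, and Gabra4 from 2.41 to 4.97 and from 3.87 to 8.48 CPM.

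Gabrb2 (ENSMUSG00000007653, chromosome 11 from 42419757 to 42629028, plus strand, 4 of 5 transcripts listed) encodes the beta2 subunit. It had 1.46, 2.12 and 1.15 CPM in controls and 5.40, 2.61 and 2.21 CPM in degenerated libraries. The groups did not overlap, but the gap between control replicate 2 and degenerated replicate 3 was small. The means were 1.58 ± 0.498 and 3.41 ± 1.74 CPM (SD, n = 3 each), and the log2 fold change was 1.11 (SE 0.49, edgeR unadjusted p 0.0609, adjusted p 0.547), or 0.60 without degenerated replicate 1.

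Gabrb1 and Gabra4 lie head to head on chromosome 5 and overlap on opposite strands, so that reads from the overlap cannot be told apart without strand. Gabrb1, the gene of the beta1 subunit, was the highest of the family by CPM, with 18.7, 10.05 and 10.3 CPM in controls and 28.4, 24.1 and 13.1 CPM in degenerated libraries. Degenerated replicate 3 lay below control replicate 1, and the log2 fold change was 0.75 (SE 0.41, edgeR adjusted p 0.615).

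Gabrp (ENSMUSG00000020159, chromosome 11 from 33550781 to 33578959, 1 of 2 transcripts listed) encodes the pi subunit, which is found mostly outside the brain. It had 4.90, 1.98 and 12.9 CPM in controls and 3.56, 14.7 and 2.84 CPM in degenerated libraries, with 1 high library in each group and a log2 fold change of 0.09 (SE 0.91, edgeR adjusted p 0.979). Gabrd, whose delta subunit serves receptors outside synapses, had 1.46, 0.424 and 2.04 CPM in controls and 1.51, 1.69 and 8.13 CPM in degenerated libraries. Gabra6, a subunit gene of cerebellar granule cells, had 0 counts in 5 libraries and 28 counts (2.21 CPM) in degenerated replicate 3. Gabre and Gabrq had 7 and 4 counts over all libraries. Of the 3 rho subunit genes, Gabrr2 and Gabrr3 were at 0 and Gabrr1 was not analysed here.

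Degenerated replicate 3, in which Gabrd and Gabra6 were highest, and degenerated replicate 1, in which Gabrb1 and Gabrb2 were highest, also had more counts in markers of central neurons and cerebellum. These markers summed to 20.98, 22.5 and 29.4 CPM in controls and to 49.7, 14.4 and 72.8 CPM in degenerated libraries, and 6 of the 8 tested had a higher fitted level, with a median log2 fold change of 0.71 and 0 calls. Cbln3, a gene of cerebellar granule cells, had 3.24, 5.66 and 2.17 CPM in controls and 10.9, 2.32 and 37.8 CPM in degenerated libraries. Neurod1 had 34, 22 and 27 counts in controls and 41, 21 and 215 in degenerated libraries. The study also names Neurod1 as a differentiation factor of auditory neurons. Cbln3 and Neurod1 held most of the 72.8 CPM in degenerated replicate 3, and both were chosen after their values were seen. Without them, that library lay within the range of the controls, while degenerated replicate 1 stayed above it. Of the 13 genes in the list, 11 had a listed transcript, and Slc6a5 was at 0 in every library. The GABA-A sum was 89.5, 68.5 and 50.3 CPM in degenerated replicates 1, 2 and 3. Markers of astrocytes summed to 593, 367 and 434 CPM in controls and to 873, 546 and 538 CPM in degenerated libraries. Those of oligodendrocytes summed to 717, 658 and 748 CPM in controls and to 974, 742 and 664 CPM in degenerated libraries. Both were highest in degenerated replicate 1. The part of any of these cell types in the GABA-A values was not tested.

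**Figure D5:**
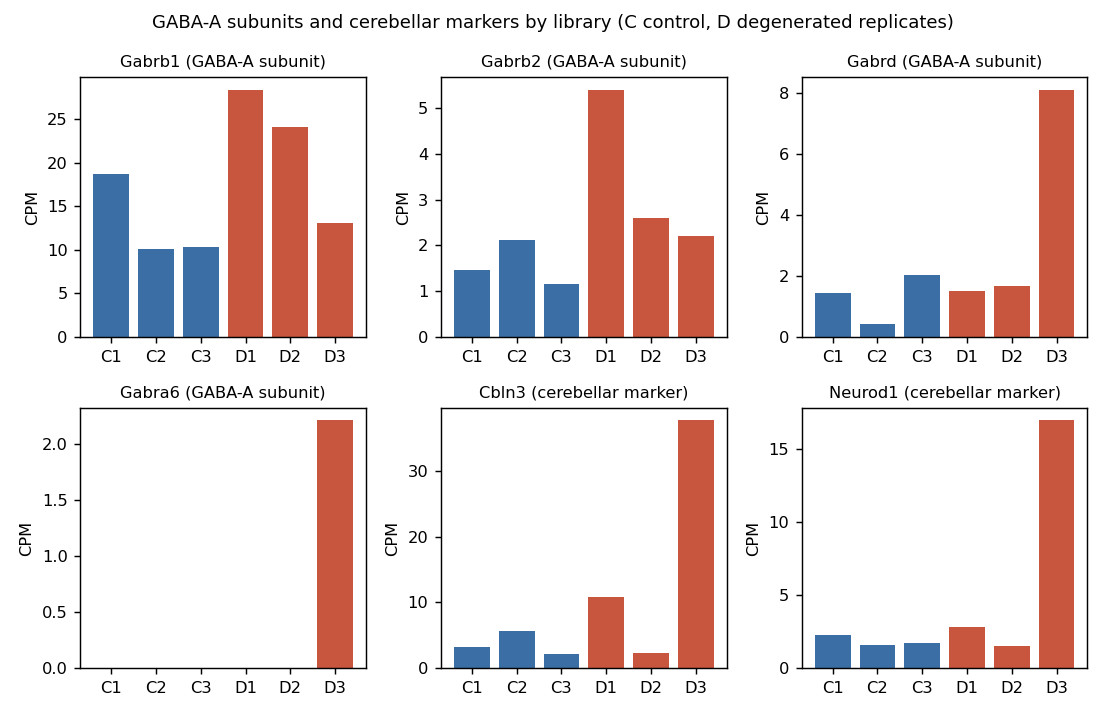
CPM of 4 GABA-A subunit genes, Cbln3 and Neurod1 in each library (C for control and D for degenerated replicates, bars starting at 0). Cbln3 and Neurod1, chosen after their values were seen, are from the list of central neuron and cerebellum markers. Degenerated replicate 3 has the highest bar for Gabrd, Gabra6, Cbln3 and Neurod1, and degenerated replicate 1 for Gabrb1 and Gabrb2.

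Of the 5 glycine receptor genes, 1 was tested. Glrb (ENSMUSG00000028020, chromosome 3 from 80843599 to 80913660, minus strand, 4 of 6 transcripts listed) encodes the beta subunit, which ties the receptor to the scaffold protein gephyrin. It stood at 734, 441 and 535 CPM in controls and at 495, 486 and 418 CPM in degenerated libraries. Control replicate 1 was the highest and the groups overlapped, with means of 570.0 ± 150.1 and 466 ± 41.7 CPM (SD, n = 3 each). The log2 fold change was -0.29 (SE 0.20, edgeR adjusted p 0.695), or -0.07 without control replicate 1.

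The alpha subunits bind glycine with the beta subunit, and the listed transcripts of their genes were near or at 0. Glra1 (ENSMUSG00000000263, chromosome 11 from 55514238 to 55608198, 1 of 3 transcripts listed), the main alpha subunit gene of spinal cord and brainstem, had 0 counts in the 3 controls and 24, 10 and 0 counts in degenerated replicates 1, 2 and 3. Glra2 and Glra3 had 10 and 27 counts over all libraries. The listed Glra3 transcript was not protein-coding, and Glra4 had no listed transcript, so coding transcripts of these genes were not measured. Glrb was counted at a level far above the listed alpha subunit transcripts in each library of both groups.

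Genes that work with these receptors were taken in 8 lists of 90 different genes, of which 66 were tested. The rule called 1 of them higher and 1 lower, or 3.03%, close to the 2.73% of all genes tested, and 0 passed 0.05 after edgeR's adjustment. Dlg1, the gene of the scaffold protein SAP97, had 88.8, 69.6 and 63.7 CPM in controls and 160.1, 117 and 126 CPM in degenerated libraries. The groups did not overlap, with means of 74.0 ± 13.1 and 134 ± 22.7 CPM (SD, n = 3 each), for a log2 fold change of 0.86 (SE 0.19, edgeR unadjusted p 0.00366, adjusted p 0.307). The call was lost without control replicate 2, control replicate 3 or degenerated replicate 1. Insyn1, a gene of the inhibitory postsynapse, had 206, 181 and 189 CPM in controls and 125, 147 and 111 CPM in degenerated libraries. It also did not overlap, with means of 192 ± 12.9 and 128 ± 17.9 CPM (SD, n = 3 each), for a log2 fold change of -0.59 (SE 0.14, edgeR unadjusted p 0.00459, adjusted p 0.320), and its call was lost when any 1 of control replicates 1 and 3 and degenerated replicates 1 and 3 was left out. The Insyn1 call was also lost with the replicate number as a block and in edgeR's exact test, which called Shisa7 lower in its place.

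The auxiliary subunits of AMPA receptors, which guide them to the membrane and slow their closing, had 2 of 8 tested genes higher, 6 lower and a median of -0.30 on the log2 scale. Their summed level was 610.4, 512 and 512 CPM in controls and 460.4, 435 and 393 CPM in degenerated libraries. The groups did not overlap, while the sums of the AMPA subunits themselves did. The smallest p of the list was that of Shisa7, with 13.2, 0.778 and 19.3 CPM in controls and 1.03, 1.20 and 0.789 CPM in degenerated libraries (log2 fold change -3.46, SE 1.09, edgeR adjusted p 0.420). Control replicate 2 was as low as the degenerated libraries.

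The scaffolds of glutamate receptors had 9 of 22 tested genes higher and 13 lower, with a median log2 fold change of -0.03. Their summed level was 880, 820 and 911 CPM in controls and 959, 960 and 955 CPM in degenerated libraries. Here too the groups did not overlap, but the degenerated libraries were the higher ones. The sums of the lists other than these scaffolds and the AMPA auxiliary subunits overlapped. Scaffolds of inhibitory synapses had 5 of 11 tested genes higher and a median of -0.17. Glutamate transport and metabolism had 4 of 12 tested genes higher and a median of -0.20, with the smallest p in the neutral amino acid transporter gene Slc1a4 (log2 fold change 0.42, edgeR adjusted p 0.542). GABA synthesis, transport and metabolism had 6 of 8 higher and a median of 0.08. Glycine transport and cleavage had 2 of 4 higher and a median of -0.01, led by the glycine transporter gene Slc6a9 (-0.18, edgeR adjusted p 0.850). The metabotropic GABA receptor genes Gabbr1 and Gabbr2 both had a lower fitted level, with a median of -0.29 and the smaller p in Gabbr2 (-0.55, edgeR adjusted p 0.631). Of the kainate auxiliary genes, Neto2 had a listed transcript and 0 were tested. Across these lists, 28 of the 66 different genes tested had a higher fitted level, against 21 of the 26 receptor genes. Neither share was tested.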

How the data were processed

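Per the study's methods, the authors used Hisat2 for alignment and StringTie for expression levels. They deposited raw counts per Ensembl transcript for the 6 libraries. The submitters' processing notes name Bowtie 0.12.2 and the builds mm8 and mm10, while the sources used here give neither the annotation nor the counting step. The table lists 65535 transcripts, of which 65272 matched GENCODE M21 (GRCm38), and 263 with 0.125% of the counts were left out. Listed counts were added up per gene. A comparison per gene had been planned, and the table holds transcripts. Many genes have a part of their transcripts listed, so a change in transcript use can change their counts. Library totals were 12480876 to 15549319, and intervals and floors cover counting error only. They do not say whether the counting used strand.

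Genes were filtered with filterByExpr, normalized with TMM (factors 0.983 to 1.02) and tested with the robust quasi-likelihood F test of edgeR 4.0.16 in R 4.3.3, 3 degenerated against 3 control libraries, without covariates. The common biological coefficient of variation was 0.488. The call rule, unadjusted p under 0.01 and log2 fold change over 0.2 in size, takes thresholds that the study used between knockout and wild-type animals, since none are given for the groups compared here, and Benjamini-Hochberg adjustment covered all 14118 genes tested. The standard error is the fold change over the square root of F. CPM are TMM-normalized, and TPM were computed over the listed transcripts with their annotated lengths. In simulated counts, where 200 of 14118 genes had a true log2 fold change of 2, the rule recovered 74.1% of the 197 tested and called 0.927% of the unchanged. The largest fitted log2 fold change of a tested receptor gene was 1.63, so the share recovered does not apply to changes of their size.

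Receptor genes with full statistics were those called, those with groups apart and an absolute log2 fold change above 0.5, and the 2 with the highest TPM in each family. Of the lists, these were the genes called or, without one, the gene with the smallest p. The members, lists and rules were chosen with earlier results of these data known. Gabra2, Gabra4, Gabrb1, Gabrd, Gabra6, Cbln3, Neurod1 and the transcript forms were chosen for description after their values were seen. Alternatives were limma-voom (limma 3.58.1), edgeR's exact test and DESeq2 1.42.0 as tests, upper-quartile and RLE normalization, a mean count of at least 10 or no filter, the replicate block, each library left out, and genes with every transcript listed. The use of protein-coding transcripts only, the fit per transcript and the transcript forms were added after the data were seen. Results for some genes are not reported here, although counts, medians and sums over the genes include them. Hearing thresholds and histology were not analysed here.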

Additional observations from a re-analysis of the deposited data

How the results depend on the processing

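The call of Grin1 lay at the edge of its threshold. The receptor genes called higher fell from 1 to 0 with edgeR's exact test, upper-quartile normalization and protein-coding transcripts alone. They were also 0 among genes with every transcript listed, a set that lacks Grin1 and so could not test its call. With each library left out they were 0 to 1, and Grin1 was not called. DESeq2 found 1 receptor gene at an adjusted p under 0.05. Called lower were 0 under every alternative run. The pathway genes called higher were 2 with DESeq2 and the exact test, 0 with fully listed genes and 0 to 2 with a library left out, and those called lower 3 with DESeq2, 2 with limma-voom, 0 with fully listed genes and 0 to 4 with a library left out. The replicate numbers were not shown to pair the libraries, since the deviations of same-numbered libraries correlated at 0.160, -0.0905 and 0.0674. With the replicate block, all genes called were 160 higher and 58 lower in place of 284 and 101, receptor genes called higher and pathway genes called lower were 0 each, and the unadjusted p of Grin1 was 0.0354. Among all 14118 genes tested, DESeq2 called 479 higher and 306 lower.

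The log2 ratio of the NMDA sum fell from 0.51 to 0.22 with fully listed genes, which lack Grin1, and to 0.46 with protein-coding transcripts. With fully listed genes, that of the metabotropic sum rose to 0.72 and that of the glycine sum turned to 1.84, which is Glra2 alone with 10 counts. With each library left out, the sums ranged from -0.36 to 0.01 for AMPA, 0.13 to 0.65 for kainate, 0.46 to 0.52 for NMDA, -0.28 to 0.66 for delta, -0.02 to 0.29 for metabotropic, 0.42 to 0.85 for GABA-A and -0.44 to -0.07 for glycine receptors. The median over the tested receptor genes ranged from 0.22 to 0.52 and over GABA-A genes from 0.53 to 1.09. Fold changes that turned sign were those of Gria3, at -0.057 with limma-voom, -0.041 with the replicate block, -0.32 with protein-coding transcripts and -0.37 to 0.37 with a library left out, and of Gabrp, at -0.043 with the block and -1.06 to 1.02 with a library left out. Leaving out a library also turned Grin2c (-0.22 to 0.21), Grm7 (-0.074 to 0.27) and Grid2ip (-0.53 to 0.87). The cause was not tested. The tested GABA-A subunit genes had standard errors of 0.41 to 0.91 on the log2 scale, which limits what these 6 libraries can show.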
